A study of Mus musculus with 10 samples.

Results

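The regions described here were open in every wild-type and single-mutant library of mouse haematopoietic stem and progenitor cells (HSPCs) and carried no peak in either double-mutant library. Overlapping ATAC-seq peaks of 8 libraries were merged into 103446 regions on chromosomes 1 to 19 and X. A region was a member when it held a peak in all 6 Npm1c, Flt3-ITD and wild-type (WT) lists and in neither double-mutant (DM) list, which left 2872 regions, or 2.78% of all regions and 9.48% of the 30289 regions called in those 6 lists. The members were thus chosen by the peak calls of all 8 lists, and their counts below are descriptions without a test.

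The 4 genotypes, on the C57BL/6 strain and with 2 libraries each, were DM (Npm1flox-cA/+;Flt3ITD/+;Mx1-Cre+), Npm1c (Npm1flox-cA/+;Mx1-Cre+), Flt3-ITD (Flt3ITD/+) and WT. Npm1c is a frameshift allele of nucleophosmin, a nucleolar chaperone, that sends the protein to the cytoplasm. Flt3-ITD is an internal tandem duplication in the cytokine receptor FLT3 that keeps it signalling without ligand. The Npm1c and DM mice also carry Mx1-Cre, a recombinase driven by an interferon-inducible promoter that acts in blood cells and in other tissues, while no Cre is named for the Flt3-ITD and WT mice. Marrow was flushed from the long bones, red cells were lysed and cells bearing lineage markers were depleted with beads, so the libraries hold a mixture of stem cells and of progenitors of several lineages. The labels do not state age, sex or an inducer of the Cre. In such a mixture fewer cells of a type and less accessible DNA per cell cannot be told apart.

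Progenitors of red cells and of megakaryocytes, the platelet-forming cells, share a set of regulators. GATA1 binds DNA sequences with a GATA core, FOG1 (encoded by Zfpm1) is its cofactor, and LMO2 bridges GATA1 to TAL1 on many of their shared sites. GATA2 has a related role in stem cells and in mast cells. The GATA-bound genes of mature red cells encode globins, haem synthesis enzymes, the spectrin membrane skeleton and the Rh and Kell surface proteins.

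Where a member lay over a promoter, the sequence can be shown. The following stretches are the 250 bases before the RefSeq start site of every erythroid and platelet list gene whose promoter window a member overlapped (RefSeq, GRCm38.p6, the assembly of mm10), each wholly inside a region missing only in DM. They are printed because the letters GATAAG, in either orientation, stand in 6 of the 9. Capitals mark GATAAG or its reverse complement CTTATC, and the Gata1, Ermap and Tubb1 stretches hold neither.
Hbb-bs: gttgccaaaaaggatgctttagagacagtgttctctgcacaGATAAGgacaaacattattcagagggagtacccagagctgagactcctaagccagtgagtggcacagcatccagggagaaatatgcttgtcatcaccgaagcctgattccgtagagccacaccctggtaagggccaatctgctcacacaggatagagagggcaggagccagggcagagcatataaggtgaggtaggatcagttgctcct
Kel: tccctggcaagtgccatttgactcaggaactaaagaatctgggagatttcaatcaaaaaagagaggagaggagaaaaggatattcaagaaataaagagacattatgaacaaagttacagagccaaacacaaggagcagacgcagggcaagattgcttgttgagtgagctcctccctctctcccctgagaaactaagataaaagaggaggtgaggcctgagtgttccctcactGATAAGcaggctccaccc
Rhag: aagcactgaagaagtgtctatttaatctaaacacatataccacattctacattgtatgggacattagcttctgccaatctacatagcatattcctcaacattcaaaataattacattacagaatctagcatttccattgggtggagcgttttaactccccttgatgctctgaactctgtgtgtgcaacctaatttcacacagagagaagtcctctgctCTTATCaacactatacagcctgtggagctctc
Rhd: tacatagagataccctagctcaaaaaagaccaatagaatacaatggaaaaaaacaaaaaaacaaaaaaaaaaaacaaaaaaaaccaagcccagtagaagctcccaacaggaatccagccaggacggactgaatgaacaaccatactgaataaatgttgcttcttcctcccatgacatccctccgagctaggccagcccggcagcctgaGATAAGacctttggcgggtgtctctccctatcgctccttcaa
Epb42: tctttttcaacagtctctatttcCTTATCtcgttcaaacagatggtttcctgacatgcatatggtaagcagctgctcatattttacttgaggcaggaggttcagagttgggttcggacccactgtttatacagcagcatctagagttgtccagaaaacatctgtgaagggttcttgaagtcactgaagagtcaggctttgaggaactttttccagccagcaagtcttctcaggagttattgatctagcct
Gp1ba: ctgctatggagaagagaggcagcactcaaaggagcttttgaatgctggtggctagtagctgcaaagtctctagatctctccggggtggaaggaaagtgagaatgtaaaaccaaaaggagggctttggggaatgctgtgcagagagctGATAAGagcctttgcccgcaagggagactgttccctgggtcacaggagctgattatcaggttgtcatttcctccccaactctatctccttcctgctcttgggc
Gata1: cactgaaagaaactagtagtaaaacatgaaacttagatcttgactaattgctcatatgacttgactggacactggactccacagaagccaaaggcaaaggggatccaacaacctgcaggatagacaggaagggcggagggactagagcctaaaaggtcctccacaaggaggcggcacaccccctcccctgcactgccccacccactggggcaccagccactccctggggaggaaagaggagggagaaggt
Ermap: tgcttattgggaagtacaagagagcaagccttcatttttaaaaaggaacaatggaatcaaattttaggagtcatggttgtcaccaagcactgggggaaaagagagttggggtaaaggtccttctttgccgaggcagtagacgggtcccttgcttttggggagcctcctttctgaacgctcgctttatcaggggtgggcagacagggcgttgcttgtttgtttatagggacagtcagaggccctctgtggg
Tubb1: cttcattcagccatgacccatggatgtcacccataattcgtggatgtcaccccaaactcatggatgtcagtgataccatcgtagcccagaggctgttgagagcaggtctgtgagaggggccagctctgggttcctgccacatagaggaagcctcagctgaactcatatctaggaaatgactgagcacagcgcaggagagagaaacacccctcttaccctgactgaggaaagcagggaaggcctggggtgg
The stretches lie at chr7:103827929-103828178 (minus strand), chr6:41704326-41704575 (minus strand), chr17:40810899-40811148 (plus strand), chr4:134864286-134864535 (plus strand), chr2:121036878-121037127 (minus strand), chr11:70638872-70639121 (plus strand), chrX:7967911-7968160 (minus strand), chr4:119189996-119190245 (minus strand) and chr2:174450345-174450594 (plus strand). The first letter of the match stands at -209 from the start site in Hbb-bs, at -18 in Kel, at -32 in Rhag, at -42 in Rhd, at -227 in Epb42 and at -103 in Gp1ba. Hbb-bs has a near-identical neighbour, Hbb-bt, and no source used here says how reads shared by both were placed, so the Hbb-bs call is uncertain.

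The lists held 55624 and 63133 peaks in DM, 62782 and 68676 in the Npm1c pair, 43825 and 51733 in the Flt3-ITD pair, and 80916 and 63908 in WT. A list gives only the position of each peak, so a region without a peak is one that did not pass the authors' threshold, which is not the same as closed chromatin. Regions missing only in Npm1c, called by the mirrored rule, numbered 1242 (1.20% of all regions), those missing only in Flt3-ITD 1193 (1.15%) and those missing only in WT 17 (0.0164%). Regions open only in DM numbered 5308 (5.13%). The 2 DM lists were longer than both Flt3-ITD lists, and 26169 regions were called in all 8 libraries. No source used here states the depth of sequencing per list.

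The genes of red cells held the highest share of members among the 17 gene lists examined. Of 433 regions assigned to the erythroid list, 45 (10.4%) were missing only in DM, beside 2.78% of all regions, and they lay at 26 of the 43 list genes with a region. Over all genes, 2128 of the 16615 with a region (12.8%) held a member, a share that is not matched for the number of regions per gene. Counted among the list's regions called in all 6 other libraries, 45 of 149 (30.2%) were members, beside 9.48% overall. The megakaryocyte and platelet list followed with 25 of 276 regions (9.06%) at 16 of 27 genes, and the mast cell and basophil list with 8 of 108 regions (7.41%) at 8 of 14 genes. The erythroid list held 1 region missing only in Npm1c (0.231%) and 1 missing only in Flt3-ITD (0.231%). The lists share genes: Zfpm1, Gata1 and Gfi1b count in both the erythroid and the megakaryocyte list. Leaving out DM replicate 1 raised the erythroid share to 16.2% (all regions 3.53%). Leaving out Flt3-ITD replicate 1 raised it to 16% (all regions 6.10%).

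**Figure D1:**
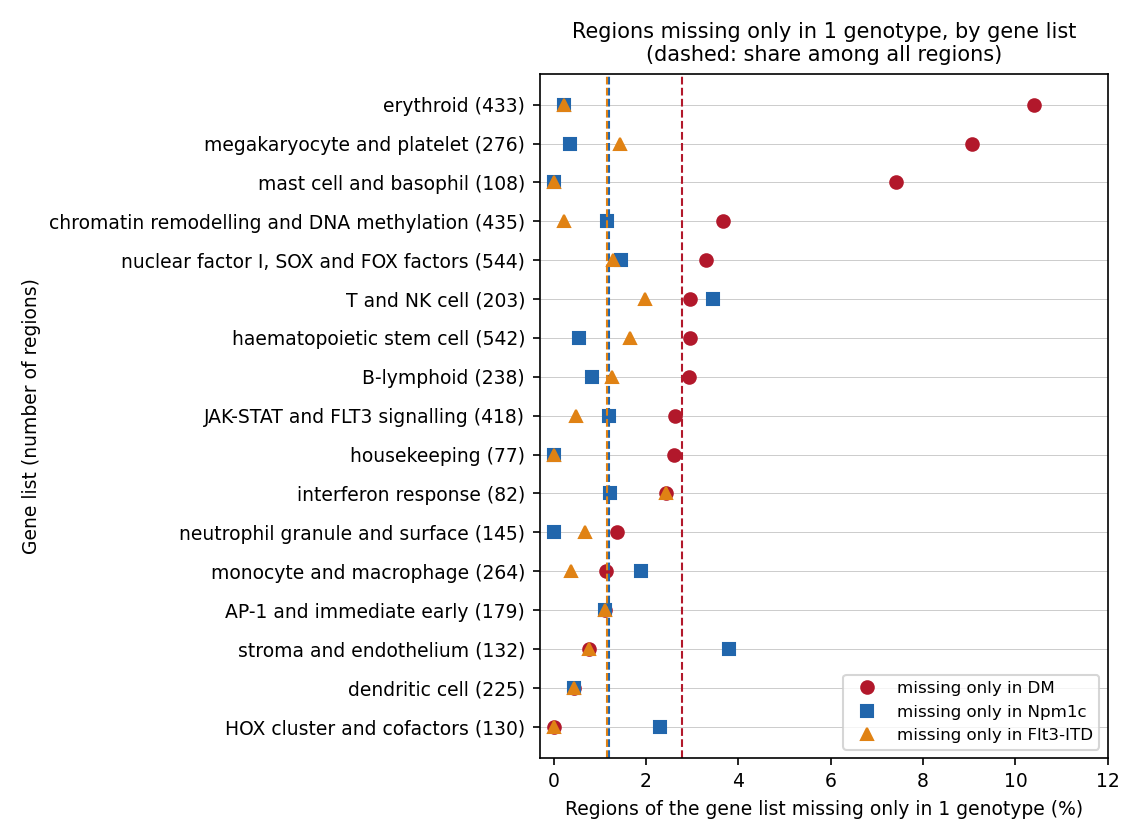
Share of the regions of each gene list (percent, horizontal axis) that were missing only in DM (circles), only in Npm1c (squares) or only in Flt3-ITD (triangles), with the number of regions in brackets and the share among all regions as dashed lines. The DM circles of the erythroid (10.4%), megakaryocyte (9.06%) and mast cell (7.41%) lists stand right of the DM line at 2.78%, while the HOX list stands at 0.

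Genes of nuclear regulators held 15 of the 45 erythroid members, which were Zfpm1 with 6, Lmo2 with 4, Gata1 with 2 and Gfi1b, Sox6 and Bcl11a with 1 each. Gfi1b is a repressor needed for red cells and platelets, and Sox6 and Bcl11a act in the silencing of embryonic globins. Another 11 lay at genes of the membrane skeleton, with 3 at Ank1 (ankyrin), 2 each at Epb41 (protein 4.1), Add2 (beta-adducin) and Dmtn (dematin), and 1 each at Sptb (beta-spectrin) and Epb42 (protein 4.2). Surface and channel proteins held 8, with 2 each at Rhd and Ermap and 1 each at Rhag, Kel, Aqp1 (a water channel) and Tspan33. The haem synthesis genes held 5, which were 2 at Fech and 1 each at Alas2, Urod and Cpox. Another 4 lay at Hbb-bs (adult beta-globin), Bpgm and, with 2, Hemgn. Apart from Zfpm1, Lmo2, Ank1, Gata1 and Ermap, the erythroid genes named here were chosen after their values were seen.

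**Figure D2:**
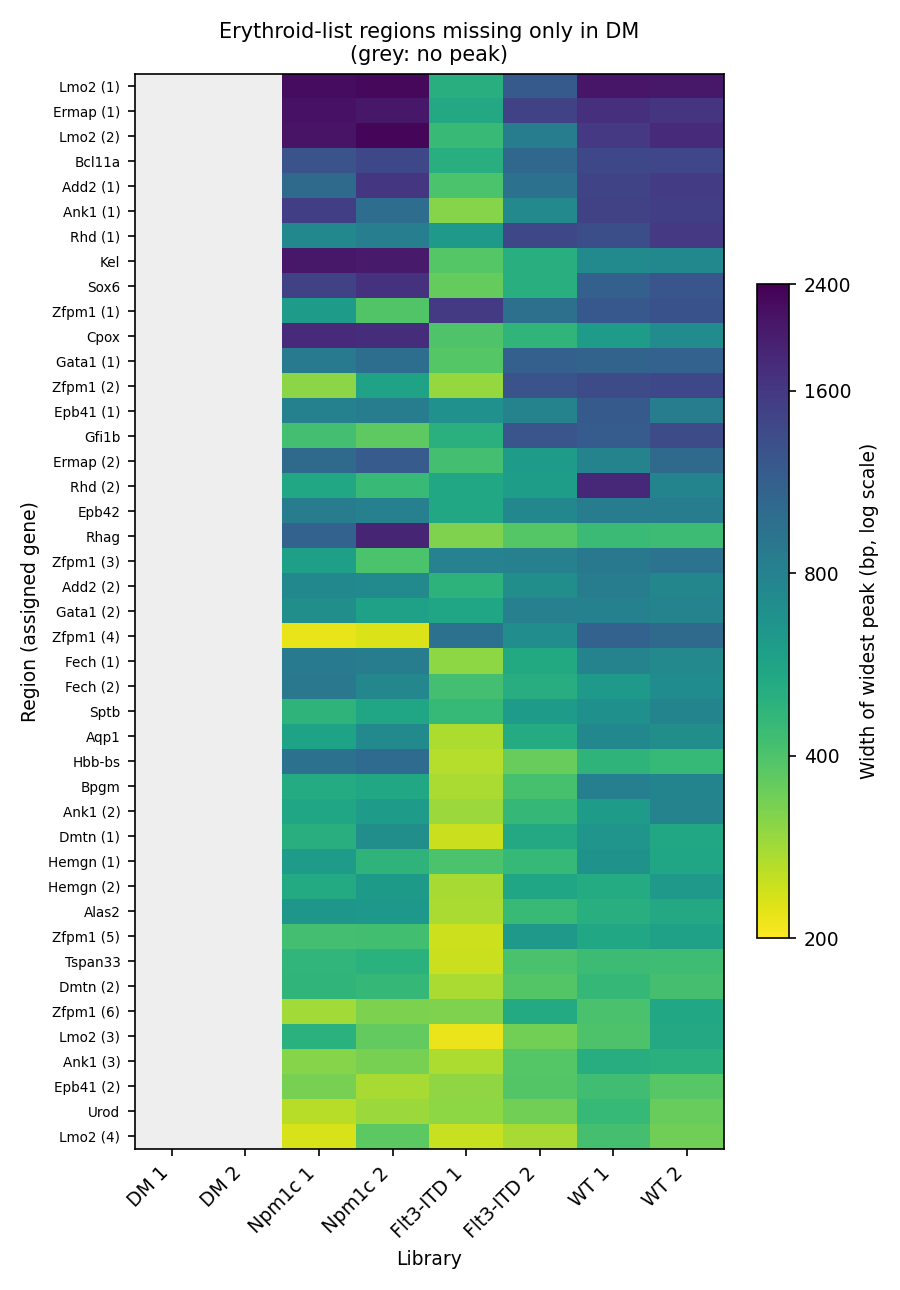
Width in bp (colour, log scale) of the widest peak in 43 of the 45 erythroid-list regions missing only in DM (rows, by assigned gene) in each of the 8 libraries (columns), with grey for no peak. Rows at Kel, Rhag and Cpox are darkest in both Npm1c columns, and rows at Zfpm1 are light there, as at the region where Npm1c peaks measure 217 and 228 bp.

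Gata1 was among the 256 genes, of 12988 with a region called in all 6 other libraries, whose every such region was a member. It had 2 such regions. One of the pair covered its promoter (X:7967628-7968758), with peaks 867 and 981 bp wide in Npm1c, 385 and 1115 bp in Flt3-ITD, and 1087 and 1103 bp in WT. The other lay 3508 bp upstream of the start site by its midpoint (X:7971010-7971827), with peaks of 702 and 580 bp in Npm1c, 556 and 811 bp in Flt3-ITD, and 804 and 792 bp in WT. In widths as listed, both Npm1c peaks were narrower than both WT peaks at each of these regions, while the Flt3-ITD libraries overlapped WT. Both Npm1c peaks were also narrower as listed at 37.7% of the regions called in all 8 libraries. Relative to each library's median width over those regions, Npm1c overlapped WT at both Gata1 members. Of the 4 Gata1 regions, 1 and 2 were called in the DM pair, 3 and 2 in the Npm1c pair, 2 and 2 in the Flt3-ITD pair, and 3 and 3 in the WT pair.

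Zfpm1 held 6 members among 33 regions, with 4 inside the gene body and the other two beyond its far end. The intronic or exonic place of these 4 is not stated because the annotation used gives no exons. By midpoint they lay 14533, 19923, 30901 and 44228 bp downstream of the start site, and the outer pair 59608 and 61512 bp downstream. At the fifth of these (8:122341203-122342296) peaks were 217 and 228 bp wide in Npm1c, 938 and 712 bp in Flt3-ITD, and 1094 and 1017 bp in WT. At the third (8:122312280-122313804) they were 309 and 573 bp in Npm1c, 295 and 1276 bp in Flt3-ITD, and 1354 and 1404 bp in WT. Both Npm1c peaks were narrower than both WT peaks at all 6 in widths as listed. DM kept other Zfpm1 regions: 6 of the 33 were called in all 8 libraries, among them the start site, and the DM libraries called 10 and 9 regions in all, against 15 and 15 in the Npm1c pair, 19 and 25 in the Flt3-ITD pair, and 27 and 27 in WT.

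**Figure D3:**
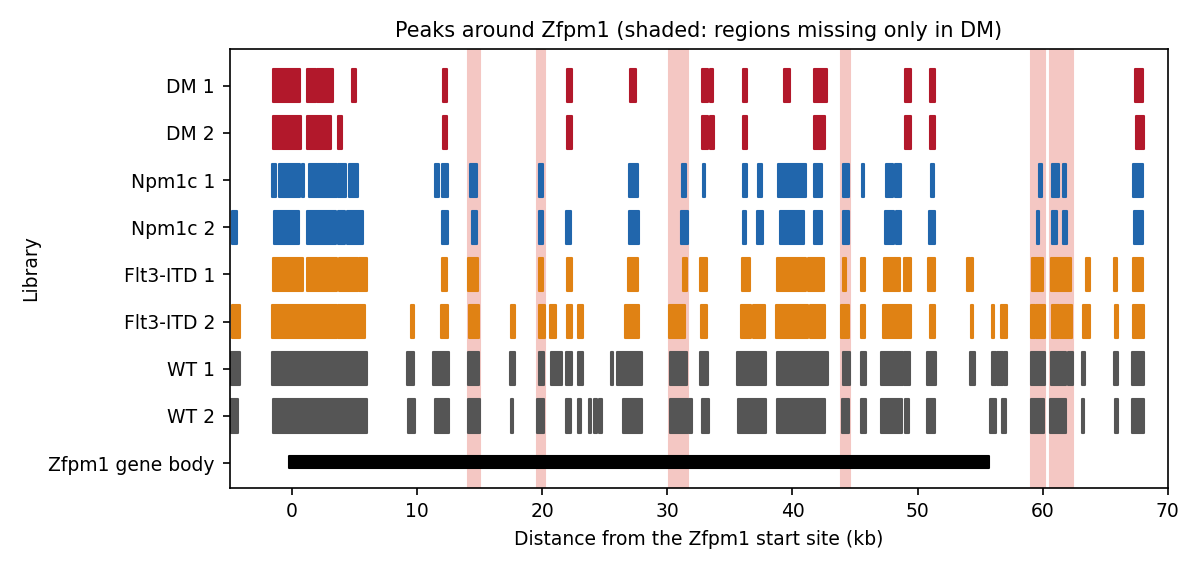
Peaks of each library (rows) around Zfpm1 by distance in kb from its start site, with the gene body as a black bar and the 6 regions missing only in DM shaded. Every row except the 2 DM rows has a bar in each shaded strip, and all 8 rows have a bar at the start site.

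At Lmo2, 3 of the 4 members lay 61779 to 76641 bp from the gene and the last only 30 bp from it. The one beside the gene (2:103956735-103959012) had peaks of 2207 and 2265 bp in Npm1c, 501 and 1191 bp in Flt3-ITD, and 2073 and 2054 bp in WT. The distal one at 2:103894946-103897302 had peaks of 2105 and 2320 bp in Npm1c, 449 and 844 bp in Flt3-ITD, and 1587 and 1782 bp in WT. These are wide peaks for the lists, at the 90.7th and 87.3rd width percentile averaged over the 6 libraries. In both regions Npm1c was wider than WT and Flt3-ITD narrower, with no overlap between the groups.

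Several genes of mature red cells showed the same order in widths as listed. At the Kel promoter (6:41702875-41704921), Kel being the Kell blood group protease, peaks were 2037 and 2006 bp wide in Npm1c, 385 and 505 bp in Flt3-ITD, and 729 and 755 bp in WT. At the promoter of Rhag, an ammonia channel of the Rh complex (17:40810836-40812725), they were 1097 and 1862 bp in Npm1c, 324 and 386 bp in Flt3-ITD, and 441 and 438 bp in WT. At Hbb-bs (7:103827787-103828791) they were 949 and 1005 bp in Npm1c, 265 and 355 bp in Flt3-ITD, and 479 and 456 bp in WT. In each of these 3 the Npm1c peaks were the widest and the Flt3-ITD peaks the narrowest as listed. In regions called in all 8 libraries the median width was also lower in Flt3-ITD (531 and 602 bp) than in WT (871 and 728 bp). Relative to these medians, Flt3-ITD was not below WT at Rhag and overlapped WT at Kel and Hbb-bs. The Rhd promoter went otherwise (4:134864187-134866030), with 542 and 449 bp in Npm1c, 548 and 597 bp in Flt3-ITD, and 1808 and 785 bp in WT. Epb42 had a single region (2:121036514-121037376), over its promoter, with 848 and 815 bp in Npm1c, 544 and 754 bp in Flt3-ITD, and 845 and 842 bp in WT.

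Over the 45 erythroid members, both Npm1c peaks were wider than both WT peaks at 15 (33.3%) and narrower at 19 (42.2%). The wider ones included 2 each at Ermap, Fech and Lmo2, and 1 each at Kel, Rhag, Hbb-bs, Alas2, Cpox, Tspan33 and Sox6. The 19 narrower ones took in all 6 at Zfpm1, both at Gata1 and both at Rhd. Over all 2872 members the shares were 21.5% wider and 46.1% narrower, and over the 26169 regions called in all 8 libraries they were 18.3% and 37.7%. These are widths as listed, from lists whose peaks differ in width overall. With each library's widths taken relative to its median over regions called in all 8, the Npm1c direction turned: both Npm1c peaks were wider at 39.1% of members and narrower at 22.1%, and at 44.5% and 18.9% of the regions called in all 8. Both Flt3-ITD peaks were narrower than both WT peaks at 36 of the 45 (80.0%) as listed and wider at none of them. Over all members these shares were higher, at 92.2% narrower and 0.139% wider. On the relative scale the mean Flt3-ITD width was above WT at 14 of the 45, with a median log2 difference of -0.14. Over all members it was above WT at 19.1%, with a median of -0.28. The mean Npm1c width was above WT at 25 of the 45, with a median log2 difference of 0.05. Over all members it was above WT at 60.3%, with a median of 0.10.

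Regions of other red cell genes were not members where a Flt3-ITD, WT or Npm1c list lacked them too, or where a DM list kept them. At Car2, a carbonic anhydrase gene with 22 regions, 2 and 2 were called in the DM pair, 19 and 19 in the Npm1c pair, 2 and 5 in the Flt3-ITD pair, and 14 and 12 in the WT pair. At Car1, its neighbour with 9 regions, the calls were 1 and 0 in DM, 8 and 8 in the Npm1c pair, 1 and 1 in the Flt3-ITD pair, and 5 and 6 in WT. By contrast the only region of Klf1, an erythroid activator, the only one of Epor, the erythropoietin receptor, and the 4 of Tal1 called in all 6 other libraries were open in both DM libraries. These 5 genes were chosen after their values were seen.

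A member lay at 16 of the 27 megakaryocyte and platelet genes. Rab27b, a GTPase of platelet granule release, held 4, Zfpm1 6 and Gata1 2. Single members lay at Pf4 (platelet factor 4), Itgb3 (integrin beta-3), Gp1ba and Gp9 (subunits of the von Willebrand factor receptor), Vwf, Tubb1 (a platelet tubulin), Fli1, Thbs1, Treml1, Mmrn1, Cd9, F2r and Gfi1b. At the Gp1ba promoter (11:70638466-70639373) peaks were 389 and 435 bp wide in Npm1c, 578 and 830 bp in Flt3-ITD, and 842 and 869 bp in WT. At the Tubb1 promoter (2:174450332-174450865) they were 296 and 346 bp in Npm1c, 445 and 534 bp in Flt3-ITD, and 368 and 418 bp in WT. Tubb1 was the single member of this list at which both Flt3-ITD peaks were wider than both WT peaks as listed. Both Npm1c peaks were narrower than both WT peaks as listed at 16 of the 25 (64.0%), beside 46.1% of all members. The 16 took in the 6 at Zfpm1, the 2 at Gata1 and the 1 at Gfi1b, which also count in the erythroid list. Both were wider at 4 (16.0%), which were 2 at Rab27b and 1 each at Thbs1 and Mmrn1. On the relative scale the mean width was above WT at 9 of the 25 in Npm1c and at 11 in Flt3-ITD. Over all members it was above WT at 60.3% in Npm1c and at 19.1% in Flt3-ITD. Beyond Zfpm1, Rab27b, Gata1 and Pf4, the genes named in this list were chosen after their values were seen.

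Each of the 8 mast cell and basophil members lay at a different gene. They were Cpa3 (carboxypeptidase A3), Cma1 (chymase), Hdc (histidine decarboxylase), Il1rl1 (the IL-33 receptor), Il4, Alox5, Kit and Gata2, of which Hdc, Alox5, Kit and Gata2 were chosen after their values were seen. The Il1rl1 promoter member (1:40428964-40429793) had peaks of 804 and 788 bp in Npm1c, 312 and 483 bp in Flt3-ITD, and 758 and 639 bp in WT. The Gata2 member, 1370 bp upstream of a start site (6:88196698-88197891), had peaks of 373 and 243 bp in Npm1c, 615 and 510 bp in Flt3-ITD, and 1053 and 1168 bp in WT. At all 8 both Flt3-ITD peaks were narrower than both WT peaks as listed, beside 92.2% of all members. The mean Flt3-ITD width was below WT at all 8 on the relative scale too, beside 80.9% of all members.

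The regions of these lists that were not members show how the libraries differed in the same lineages. Among the 388 other erythroid regions, 36.1% and 34.8% were called in DM, 64.7% and 66.5% in the Npm1c pair, 31.7% and 45.4% in the Flt3-ITD pair, and 77.1% and 66.0% in WT. Over all 100574 regions that were not members, the shares were 51.9% and 59.7% in DM, 55.8% and 62.0% in the Npm1c pair, 37.0% and 44.5% in the Flt3-ITD pair, and 74.7% and 57.0% in WT. DM thus stood below its own overall share at erythroid genes. It also did so at the other megakaryocyte regions (47.0% and 47.4% in DM), mast cell regions (37.0% and 48.0%) and stem cell regions (45.2% and 50.8%). Both Flt3-ITD libraries likewise stood below their own overall shares at stem cell regions (32.1% and 40.5%) and at mast cell regions. Both Npm1c libraries stood below theirs at mast cell regions but above at stem cell regions (58.2% and 66.0%). At megakaryocyte regions both pairs stood above theirs (41.8% and 51.8% in Flt3-ITD, 56.2% and 65.7% in Npm1c). Regions of myeloid genes stood above the DM overall share in DM. Of 224 dendritic cell regions that were not members, 65.2% and 83.5% were called in DM, 44.2% and 46.0% in the Npm1c pair, 40.6% and 41.1% in the Flt3-ITD pair, and 61.2% and 39.3% in WT. The 261 monocyte and macrophage regions stood at 62.5% and 75.9% in DM, 39.5% and 42.1% in the Npm1c pair, 40.2% and 41.8% in the Flt3-ITD pair, and 60.2% and 39.8% in WT. The 143 neutrophil regions stood at 75.5% and 79.0% in DM, 45.5% and 44.8% in the Npm1c pair, 44.8% and 49.0% in the Flt3-ITD pair, and 71.3% and 40.6% in WT. The part of cell makeup in the missing regions was not tested.

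Counts for myeloid and HOX genes were small, beside 2.78% of all regions. The dendritic cell list had 1 of 225 regions (0.444%), the monocyte and macrophage list 3 of 264 (1.14%), the neutrophil list 2 of 145 (1.38%) and the HOX cluster and cofactor list 0 of 130. The 95% Wilson intervals were 0.0785% to 2.47% for the dendritic cell share and 0.387% to 3.29% for the monocyte share. They were 0.379% to 4.89% for the neutrophil share and 0% to 2.87% for the HOX share. These intervals cover counting error only. They take regions of the same gene as independent, so they are no test against 2.78%. Regions open only in DM made up 13.3%, 14.4% and 8.97% of the dendritic, monocyte and neutrophil lists, beside 5.13% of all regions, and 1.62% of the erythroid list. Irf8, a regulator of monocytes and dendritic cells, held no member among 48 regions, of which 31 and 45 were called in DM, 4 and 4 in the Npm1c pair, 14 and 13 in the Flt3-ITD pair, and 11 and 8 in WT. Npm1, Flt3 and Mx1 held none either. At Mx1, the gene whose promoter drives the Cre, 3 and 4 of 4 regions were called in DM, 4 and 3 in the Npm1c pair, 1 and 1 in the Flt3-ITD pair, and 1 and 0 in WT. The DM and Npm1c mice also carry this promoter with the Cre. No source used here says how reads from it were placed, so the Mx1 calls in these mice are uncertain.

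The stem cell list stood near the background, with 16 of 542 regions (2.95%) at 12 of 33 genes, among them Lmo2, Gata2, Kit, Angpt1, Cdkn1c and Myct1 (Gata2 and Kit were chosen after their values were seen). So did the JAK-STAT and FLT3 signalling list (11 of 418, 2.63%), the T and NK cell list (6 of 203, 2.96%), the B-lymphoid list (7 of 238, 2.94%), the interferon list (2 of 82, 2.44%) and the housekeeping list (2 of 77, 2.60%). Nuclear factor I, SOX and FOX genes held 18 of 544 (3.31%), with 5 each at Nfia and Foxn3 and 3 at Foxo3. Chromatin remodelling and DNA methylation genes held 16 of 435 (3.68%), with 4 at Gse1, 3 at Arid1b and 2 at Dnmt3b, a DNA methyltransferase. AP-1 and immediate early genes held 2 of 179 (1.12%), and stroma and endothelium genes 1 of 132 (0.758%).

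Members lay mostly away from promoters. Their midpoints stood a median of 21.2 kb from the nearest RefSeq start site (quartiles 7.97 and 61.4 kb), against 9.49 kb for regions called in all 8 libraries and 22.9 kb for all regions. Within 1 kb of a start site lay 106 of the 2777 members on chromosomes with start sites (3.82%), against 33.4% of regions called in all 8 libraries and 11.5% of all regions. Regions missing only in Npm1c stood at 12.1% and those missing only in Flt3-ITD at 5.59%. Inside a gene body lay 1843 members (64.2%), against 65.0% of regions called in all 8 libraries and 59.6% of all regions. Members were 801 bp wide at the median, against 1000 bp for regions called in all 8 libraries and 435 bp for all regions. A wider region is more likely to meet a peak in all 6 lists, so the rule itself bears on this width. On the X chromosome 26 of 2219 regions (1.17%) were members and on chromosome 4 219 of 6375 (3.44%), the lowest and highest shares.

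DM peaks were near most members. The median distance to the nearest peak was 5.88 kb in DM replicate 1 and 5.66 kb in replicate 2, and a peak lay within 1 kb of 11.1% and 12.2% of members and within 20 kb of 81.7% and 83.3%. Regions missing only in Npm1c lay 6.95 and 6.71 kb from an Npm1c peak at the median, 10.3% and 10.8% of them within 1 kb. Those missing only in Flt3-ITD lay 11.5 and 9.73 kb from a Flt3-ITD peak, 10.7% and 11.5% of them within 1 kb. The 2770 members with an assigned gene fell on 2128 genes, and 1841 of these genes (86.5%) also had a region called in all 8 libraries. Over all genes, 12587 of the 16615 with a region had one called in all 8, not matched for the number of regions per gene. Most of the 2128 genes (1665) had a single member, 344 had 2 and 119 had at least 3. At 256 genes, of 12988 with a region called in all 6 other libraries, every such region was a member. Only 32 of the 256 had 2 or more such regions. Those with 3 or more such regions were Chst1, Spata5, Sowaha, Lrrc29, Ociad2 and Epha4.

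No gene held more than 6 members. Chst1, a keratan sulphate sulphotransferase gene, held 6 among 17 regions, 5 of them outside the gene and 2120 to 79935 bp from it. Of its regions, 2 and 1 were called in the DM pair, 9 and 11 in the Npm1c pair, 8 and 9 in the Flt3-ITD pair, and 16 and 12 in the WT pair. Spata5 held 5 among 19, all inside the gene, with 2 and 4 regions called in DM, 14 and 13 in the Npm1c pair, 7 and 8 in the Flt3-ITD pair, and 12 and 10 in WT. Neither gene had a region called in all 8 libraries. The other genes with 6 were Zfpm1, Mtss1 (39 regions), Cmip (45 regions) and Pde4d, a cAMP phosphodiesterase gene (81 regions). Of these genes Mtss1 kept 7, Cmip 17, Pde4d 18 and Zfpm1 6 regions in all 8 libraries. Those with 5 that ranked next were Igsf3, Dpf3 (a subunit of the BAF remodeller), Ntn4, Pitpnc1, Chst11 and Igf1r (the IGF1 receptor).

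Runs of members are described without the same count over other regions beside them. Another member lay within 20 kb of 746 members (26.0%), and the longest chains held 4. There were 5 such chains, at Slc25a44 and Sema4a, at Psmd4 and Pip5k1a, upstream of Igsf3, at Sphk1 and Ube2o, and on chromosome 5 with no gene within 100 kb. The chain at Igsf3 spanned 17941 bp between the first and last midpoints. In it the member nearest the gene (3:101372207-101372999) had peaks of 540 and 759 bp in Npm1c, 272 and 359 bp in Flt3-ITD, and 630 and 786 bp in WT.

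Some members held peaks among the widest of their lists. At Vps13d, a lipid transfer protein gene (4:145032284-145035988), peaks were 3185 and 3705 bp wide in Npm1c, 771 and 1311 bp in Flt3-ITD, and 3107 and 3154 bp in WT. At the promoter of Kdm5b, a histone H3 lysine demethylase gene (1:134559772-134561823), they were 1639 and 1662 bp in Npm1c, 1089 and 1661 bp in Flt3-ITD, and 2051 and 1861 bp in WT. The 4 Npm1c and WT peaks at Vps13d were all wider than 3 kb, and neither DM library had a peak there. Others of the 8 widest lay at Bmp1, Abcg4, 4930523C07Rik and Slc25a21, and 1 lay near no gene. The 4 narrowest lay at Tmem86b, Ofcc1, Esd and Gm40035, with peaks between 200 and 356 bp.

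Members overlapped 92 RefSeq promoter windows, of 89 genes, among 21044 windows that run from 250 bases before to 50 bases after a start site. GATAAG, on either strand, was found in 22 of the 92 (23.9%). It was found in 1 of 140 windows over regions missing only in Npm1c (0.714%), in 5 of 54 over regions missing only in Flt3-ITD (9.26%), in 4.47% of windows over regions called in all 8 libraries and in 6.95% of all windows. Besides the 6 genes shown above, the windows with a match were those of Il1rl1 and Il9r, with 2 matches each, Myct1, Slfn14 and Ackr1 (the Duffy antigen of red cells, in a region assigned to its neighbour Cadm3) and other genes. Il9r and Slfn14 were chosen after their values were seen. The Ackr1 region (1:173332316-173334929) had peaks of 2516 and 2602 bp in Npm1c, 428 and 955 bp in Flt3-ITD, and 1214 and 1143 bp in WT. A match is a run of letters and not a measured binding site.

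**Figure D4:**
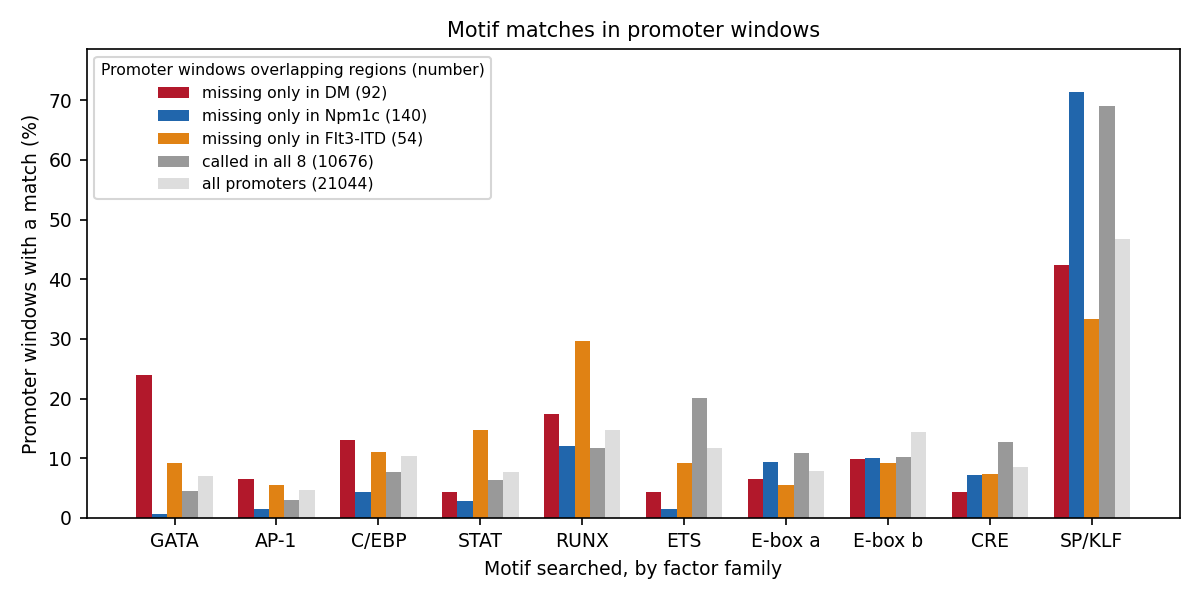
Percent of promoter windows (vertical axis) with each of 10 motifs, named by factor family, for windows over regions missing only in DM, only in Npm1c or only in Flt3-ITD, over regions called in all 8 libraries, and for all windows (number in brackets; E-box a is CACGTG and E-box b is CAGATG). The DM bar stands at 23.9% for GATA and at 4.35% for ETS. For ETS the bar of regions called in all 8 libraries stands at 20.1%, and the Npm1c bar at 1.43%.

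The ETS letters CCGGAAG were found in 4.35% of member windows, against 20.1% over regions called in all 8 libraries and 11.7% of all windows. Windows over regions missing only in Npm1c stood lower still, at 1.43%, and those missing only in Flt3-ITD at 9.26%. The SP/KLF letters GGGCGG were found in 42.4% of member windows, against 69.1% over regions called in all 8 libraries and 46.7% of all windows. For regions missing only in Npm1c and only in Flt3-ITD they stood at 71.4% and 33.3%. For the other motifs, searched on both strands, the member share and the share of all windows were 6.52% and 4.69% for TGACTCA (AP-1), 13% and 10.3% for TTGCNNAA (C/EBP), 4.35% and 7.76% for TTCNNNGAA (STAT) and 17.4% and 14.8% for TGTGGT (RUNX). They were 6.52% and 7.91% for CACGTG, 9.78% and 14.4% for CAGATG (both E-boxes) and 4.35% and 8.58% for TGACGT (the cAMP response element). TTCNNNGAA and the other motifs can overlap within a window, and most members lie outside these windows, where no sequence was read.

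In the 6 libraries that had them, member peaks were narrow in Flt3-ITD. Their median width was 582 and 607 bp in Npm1c, 315 and 462 bp in Flt3-ITD, and 679 and 667 bp in WT. In regions called in all 8 libraries the medians were 661 and 699 bp in Npm1c, 531 and 602 bp in Flt3-ITD, and 871 and 728 bp in WT. Both Flt3-ITD peaks were narrower than both WT peaks at 2647 members (92.2%), beside 69.0% of the regions called in all 8 libraries, and wider at 4 (0.139%), beside 1.77%. On the relative scale both were narrower at 40.3% of members and wider at 5.22%, while the regions called in all 8 went the other way, with 17.3% narrower and 42.5% wider. Among regions with a mean WT width of 531 to 892 bp, the middle range of the members, the narrower share was 94.5% of 1436 members and 66.8% of 6532 regions called in all 8 libraries.

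**Figure D5:**
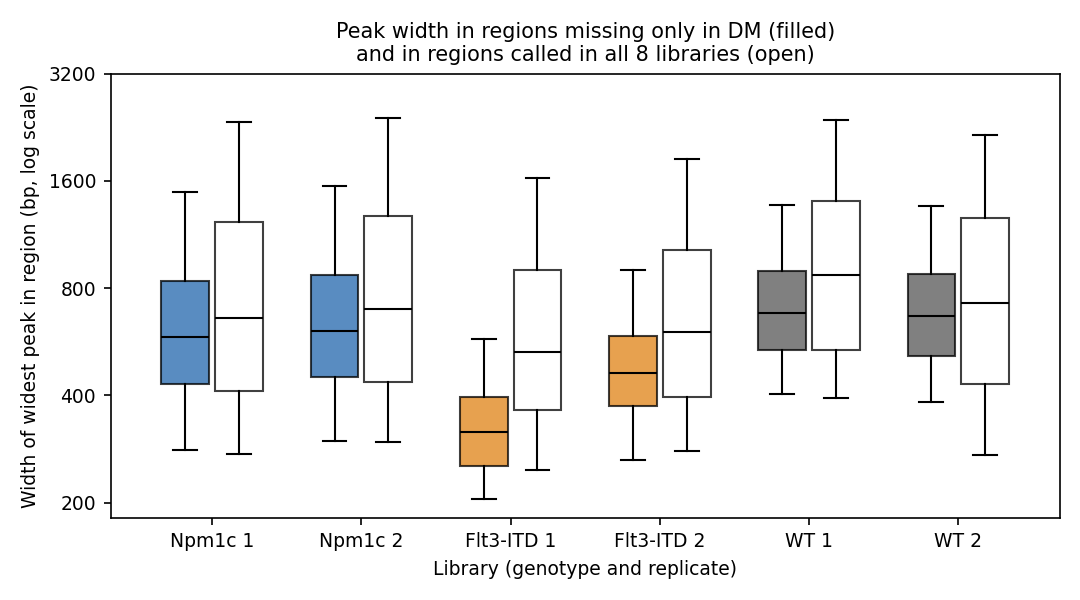
Width in bp (log scale) of the widest peak per region in the 6 libraries that held the members, for regions missing only in DM (filled boxes) and for regions called in all 8 libraries (open boxes). Boxes span the quartiles around the median and whiskers run from the 5th to the 95th percentile. The filled Flt3-ITD boxes, with medians of 315 and 462 bp, sit lowest.

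For a test over libraries, each library's median log2 width of member peaks was taken relative to its median over regions called in all 8 libraries. This relative log2 width was -0.57 ± 0.26 in Flt3-ITD and -0.24 ± 0.16 in WT (SD, n = 2 each), a difference of -0.32 (two-sided exact permutation p = 0.333, the smallest that 2 against 2 libraries can give, adjusted p = 0.5 over 3 comparisons). In Npm1c it was -0.19 ± 0.01, against -0.24 ± 0.16 in WT (SD, n = 2 each), a difference of 0.05 (exact permutation p = 1, adjusted p = 1). Flt3-ITD stood -0.35 from Npm1c and WT as 1 group, which averaged -0.22 ± 0.10 (SD, n = 4, exact permutation p = 0.133, which is the lowest attainable, adjusted p = 0.400). None of the 3 passed, and none could have. The 2 Flt3-ITD libraries, at -0.75 and -0.38, were both below the Npm1c libraries at -0.18 and -0.20, while WT replicate 1, at -0.36, stood near the second of them and WT replicate 2 at -0.13.

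The edges of the rule were not empty. Another 1248 regions were called in all 6 lists and in 1 DM list, 739 of them in DM replicate 1 and 509 in DM replicate 2. In these the DM peaks were near the 200 bp minimum of the lists, with medians of 264 bp in replicate 1 and 269 bp in replicate 2. Member peaks had median widths of 592 bp in Npm1c, 385 bp in Flt3-ITD and 674 bp in WT. Regions called in DM replicate 1 alone were wider elsewhere (776 bp in Npm1c, 506 bp in Flt3-ITD and 830 bp in WT), and those called in DM replicate 2 alone were narrower (415 bp in Npm1c, 307 bp in Flt3-ITD and 476 bp in WT). On the other side, 3668 regions had a peak in 5 of the 6 lists and in no DM list. Of these 3429 lacked it in Flt3-ITD replicate 1, the shortest list, which therefore sets the size of the group: without that library 6302 regions met the rule in place of 2872.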

How the data were processed

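ATAC-seq was run on 8 HSPC libraries, 2 for each of 4 genotypes, and the series' design text calls the 2 biological replicates. The 2 neutrophil samples were not analysed here. Bowtie2 and MACS2 are the aligner and peak caller named in the submitters' processing notes, with the build mm10. Versions, thresholds, duplicate removal and any shift of reads for the transposase are not given in the sources used here, nor is the read depth. Each deposited list gives 3 columns, the chromosome, start and end in bp, for 1 library, with no header and no score. The number of peaks per list, 43825 to 80916, limits which regions can be members.

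Groups and replicate numbers came from the sample titles. Peaks on chromosomes 1 to 19 and X that shared 1 bp were merged. A region was called in a library with a peak in it, and its width there is that of the widest such peak. A region went to the gene holding its midpoint, the shortest of several, or failing that to the closest gene boundary up to 100 kb away (RefSeq GRCm38.p6, 21630 genes). Start sites were taken from a promoter table that has none for chromosome 18. Coordinates count from 1. Widths were compared with exact permutation tests over libraries. The members and the 17 gene lists (401 genes) were chosen with earlier results of these data known. The text names Npm1, Flt3, Mx1 and Irf8, the 12 genes with most members, up to 4 genes per list, the genes of the 8 widest and 4 narrowest members and of the longest runs, and up to 8 genes with a promoter in a member. Promoters shown beyond those 8 were chosen after their values were seen. Regions of a few genes are not reported here. The rule was tested on simulated lists. Alternatives changed merging, the call, list length, the number of lists required, gene distance, centring and single libraries. Python 3.11.15, numpy 2.4.6, pandas 2.3.3 and scipy 1.17.1 were used.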

Additional observations from a re-analysis of the deposited data

How the results depend on the processing

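Asking for a peak in at least 5 of the 6 lists gave 6540 members in place of 2872, and leaving out single libraries gave 2893 to 6302, the highest without Flt3-ITD replicate 1. The median region width of 801 bp became 839 bp with lists of equal length and 660 bp with 5 of 6 lists, and 669 to 828 bp without single libraries. The share within 1 kb of a gene end was 7.10%, then 6.10% with 5 of 6 lists and 5.81% to 7.69% without single libraries. The erythroid share of 10.4% became 15.2% with equal lengths and 16.4% with 5 of 6 lists, where all regions stood at 4.66% and 6.32%, and 10.5% to 16.2% without single libraries. The megakaryocyte share of 9.06% became 13.8% with 5 of 6 lists and 9.16% to 13.1% without single libraries. The share of promoter windows with GATAAG, 23.9%, ranged over 18.0% to 26.7% without single libraries and was 24.7% counted by gene, both alternatives added after seeing the data. For the lists not led with, 209 of 225 alternative shares lay inside the 95% Wilson interval, 14 lay above it and 2 below.

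The relative log2 width of Npm1c against WT, 0.05, turned to -0.07 without WT replicate 1 (range without single libraries -0.07 to 0.17), to -0.18 without centring and to -0.17 centred on all peaks of a list, so it has no stable direction. Flt3-ITD against WT, -0.32, ran from -0.51 to -0.21 without single libraries, with no change of sign. With the replicate number as a block the differences stayed at -0.32 (exact p = 0.5) and 0.05 (exact p = 1). The numbers mark no known pairing, and 2 pairs cannot give an exact p under 0.5. In the alternatives where the value moved, the cause was not tested, other than that fewer required lists or libraries admit more regions.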
